A study of Mus musculus with 6 samples.

Results

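*Ptpn22* and 7 protein-coding genes that lie beside it on mouse chromosome 3 (*Olfml3*, *Hipk1*, *Dclre1b*, *Ap4b1*, *Rsbn1*, *Phtf1* and *Magi3*) were followed through RNA-seq of whole embryos at stage E10.5. These 8 genes were chosen from 55401 gene identifiers in the count table, of which 16784 passed the filter on low counts, and all 8 passed it. *Ptpn22* was picked for its small p-value in the comparison of genotypes described here, and the 7 others for their position beside it with their values already known. The differences between genotypes for the 8 genes are therefore a description, and no test of them is offered.

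The 5C embryos carried extra tandem copies of *Mir483*, a microRNA gene hosted by *Igf2*, placed at the endogenous *Igf2* locus by cassette exchange in embryonic stem cells. WT embryos were littermates with an unmodified locus. There were 3 libraries of WT and 3 of 5C. The study's methods state that a library pooled a pair of male embryos, on a C57BL/6J background. The array was inherited through the germ line, and no tissue was separated. Fewer cells of a type cannot be told apart from less RNA per cell in whole embryos.

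Libraries held 6357343 to 19151368 counts, which set the lowest level detectable (3 counts) between 0.157 and 0.472 CPM (counts scaled to a common library total). This floor covers counting error only. *Mir483*, read in these mRNA libraries from longer transcripts that contain its hairpin, stood at 0.577, 0.429 and 0.319 CPM in WT, against 5.15, 4.35 and 2.56 CPM in 5C, as the labels require. The Y-linked *Ddx3y* had 11 counts in WT replicate 2 and 0 in 5C replicate 2, against 310 to 937 in the other 4 libraries, so replicate 2 of each genotype goes against the stated male sex. *Afp*, made by yolk sac endoderm, was at 3091 CPM in WT replicate 1 and 632 CPM in 5C replicate 3, against 84.8 to 227 CPM elsewhere. Values without these libraries are given for *Ptpn22*, *Rsbn1*, *Ap4b1* and the marker lists.

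*Ptpn22* encodes a PEST-domain tyrosine phosphatase of haematopoietic cells. With the kinase Csk it restrains signalling from antigen receptors by removing phosphate from Src-family kinases and from Zap70. In the embryo at mid-gestation the blood consists largely of primitive red cells, with macrophages and megakaryocytes of yolk sac origin, and T lymphocytes have not yet formed. The neighbours have unrelated roles. *Olfml3* encodes a secreted olfactomedin-like glycoprotein, *Hipk1* a nuclear kinase that binds homeodomain proteins, *Dclre1b* the Apollo nuclease that trims telomere ends, and *Ap4b1* a subunit of the AP-4 adaptor of vesicle traffic. *Rsbn1* encodes a nuclear protein first described in round spermatids, *Phtf1* a membrane protein abundant in testis, and *Magi3* a scaffold of cell junctions.

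In GRCm38, with GENCODE annotation, the genes run along chromosome 3 from *Olfml3* (103722222 to 103738001) to *Magi3* (104013259 to 104220374). *Ptpn22* (ENSMUSG00000027843) occupies 103859795 to 103912247 on the plus strand. Its nearest member downstream, *Rsbn1*, begins 1872 bases after its end and reads in the same direction. Upstream, *Ap4b1* ends 37769 bases before it, and the pro-apoptotic *Bcl2l15* lies in that interval. *Ap4b1* and *Dclre1b* start head to head with 75 bases between them, and *Phtf1* and *Magi3* overlap tail to tail. *Ptpn22* shares no exon bases with any other annotated gene.

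The sequences before the annotated starts show how the promoter of *Ptpn22* differs in composition from that of its closest head-to-head pair. RefSeq (GRCm38.p6) gives 2 starts for *Ptpn22*, at 103859795 and 103860277, and the 250 bases before each are printed, followed by the whole interval between *Dclre1b* and *Ap4b1*. All read 5′ to 3′ on the plus strand, and capitals mark CpG dinucleotides. The stretch before the second start lies in an intron of the longer transcript.
Ptpn22 start 1, chr3:103859545-103859794: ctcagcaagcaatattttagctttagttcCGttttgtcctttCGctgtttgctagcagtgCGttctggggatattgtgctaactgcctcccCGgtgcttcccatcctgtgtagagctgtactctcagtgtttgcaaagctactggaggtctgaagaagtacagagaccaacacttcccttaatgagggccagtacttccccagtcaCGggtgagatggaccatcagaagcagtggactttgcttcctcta
Ptpn22 start 2, chr3:103860027-103860276: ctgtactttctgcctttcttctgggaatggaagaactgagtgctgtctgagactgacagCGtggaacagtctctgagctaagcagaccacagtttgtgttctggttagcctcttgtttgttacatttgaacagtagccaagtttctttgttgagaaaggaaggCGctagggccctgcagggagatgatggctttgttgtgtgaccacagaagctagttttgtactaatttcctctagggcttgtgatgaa
Dclre1b to Ap4b1, chr3:103809445-103809519: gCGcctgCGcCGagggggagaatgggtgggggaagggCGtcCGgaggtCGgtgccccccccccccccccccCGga

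The 250 bases before the first *Ptpn22* start held 5 CpG dinucleotides, those before the second held 2, and the 75 bases between *Dclre1b* and *Ap4b1* held 7. Over the RefSeq promoter windows (250 bases before to 50 bases after a start), the 2 windows of *Ptpn22* held 6 and 3 CpG, fewer than any of the 9 windows of the other members, which held 8 to 36. The median over 32851 mouse promoter windows was 7. The hexamer TGTGGT, the core of the RUNX motif, was found on either strand 3 times in the window of the second *Ptpn22* start, in no other member window, and at least once in 16.8% of all windows. The ETS-type core CGGAAG was in neither *Ptpn22* window, in 1 window of *Hipk1* and in that of *Ap4b1*, and in 16.9% of all windows. These are letter matches on both strands, and no binding was measured here.

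In each WT library *Ptpn22* was low, at 2.99, 1.97 and 3.35 CPM, from 57, 23 and 21 counts. In 5C it was at 10.4, 10.1 and 7.26 CPM, from 171, 118 and 102 counts. Every 5C library stood above every WT library, and the gap between the lowest 5C value and the highest WT value exceeded the whole range within either genotype. Group means were 2.77 ± 0.713 CPM for WT and 9.23 ± 1.71 CPM for 5C (SD, n = 3 each), and the fitted log2 fold change was 1.75 ± 0.23 (SE), or 3.37-fold. By the size of the log2 fold change it was in position 71 of the genes tested, and by upward changes alone in position 6.

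None of the 7 neighbours came near that difference. Their log2 fold changes ran from -0.12 to 0.24 with a median of 0.00, beside a median of -0.00 and a median size of 0.11 over all genes tested.

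*Rsbn1*, which starts 54.3 kb from the *Ptpn22* start and reads the same way, was the other gene whose genotypes did not overlap. It was at 113, 109 and 111 CPM in WT, against 114, 129 and 133 CPM in 5C. The first 5C library was barely above the WT libraries, and the other 2 stood clear of them. Means were 111 ± 2.03 and 125 ± 10.3 CPM (SD, n = 3 each), and the log2 fold change was 0.18 ± 0.07 (SE). It was 0.14 ± 0.11 (SE) without replicate 2 of both genotypes and 0.15 ± 0.09 (SE) without WT replicate 1 and 5C replicate 3. Of the exon bases of *Rsbn1*, 2101 lie under *Phtf1os*, an antisense transcript at 5.25 to 8.16 CPM in WT and 5.33 to 7.76 CPM in 5C. The strand setting of the gene counting is not given in the sources used here, so reads from the 2 cannot be told apart.

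*Ap4b1* was at 4.62, 6.78 and 7.98 CPM in WT, against 7.39, 7.26 and 7.69 CPM in 5C. Its 5C values lay inside the WT range, and WT replicate 1 alone was low. Its log2 fold change of 0.24 ± 0.20 (SE) shrank to 0.03 ± 0.17 without that library, and rose to 0.39 ± 0.20 without WT replicate 3. It was 0.32 ± 0.29 (SE) without replicate 2 of both genotypes and 0.01 ± 0.18 without WT replicate 1 and 5C replicate 3. *Ap4b1* shares 2396 of its 2907 exon bases with the model *Gm43064* on the same strand, which had 0 to 3 counts, so its level is uncertain.

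*Dclre1b*, which shares a start region with *Ap4b1*, varied little. It was at 36.3, 37.9 and 37.8 CPM in WT, against 36.8, 37.4 and 38.1 CPM in 5C, a coefficient of variation of 2.37% and 1.74%. Its genotypes overlapped almost fully, with a log2 fold change of 0.00 ± 0.07 (SE).

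*Hipk1* was at 158, 163 and 179 CPM in WT, against 165, 146 and 148 CPM in 5C. The 5C values lay lower on average, and the first 5C library fell within the WT range. Its log2 fold change was -0.12 ± 0.08 (SE), the lowest of the 8. *Phtf1* was at 93.1, 108 and 98.4 CPM in WT, against 103, 102 and 107 CPM in 5C, all of the latter within the WT range.

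*Magi3* was at 87.9, 83.3 and 86.1 CPM in WT, against 76.5, 83.1 and 87.7 CPM in 5C. *Olfml3* was at 32.2, 27.4 and 26.2 CPM in WT, against 25.8, 28.5 and 31.0 CPM in 5C. Both sets overlapped between genotypes, with log2 fold changes of -0.06 ± 0.07 and -0.02 ± 0.11 (SE). The highest *Olfml3* values were in WT replicate 1 and 5C replicate 3, the libraries highest in *Afp*.

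**Figure D1:**
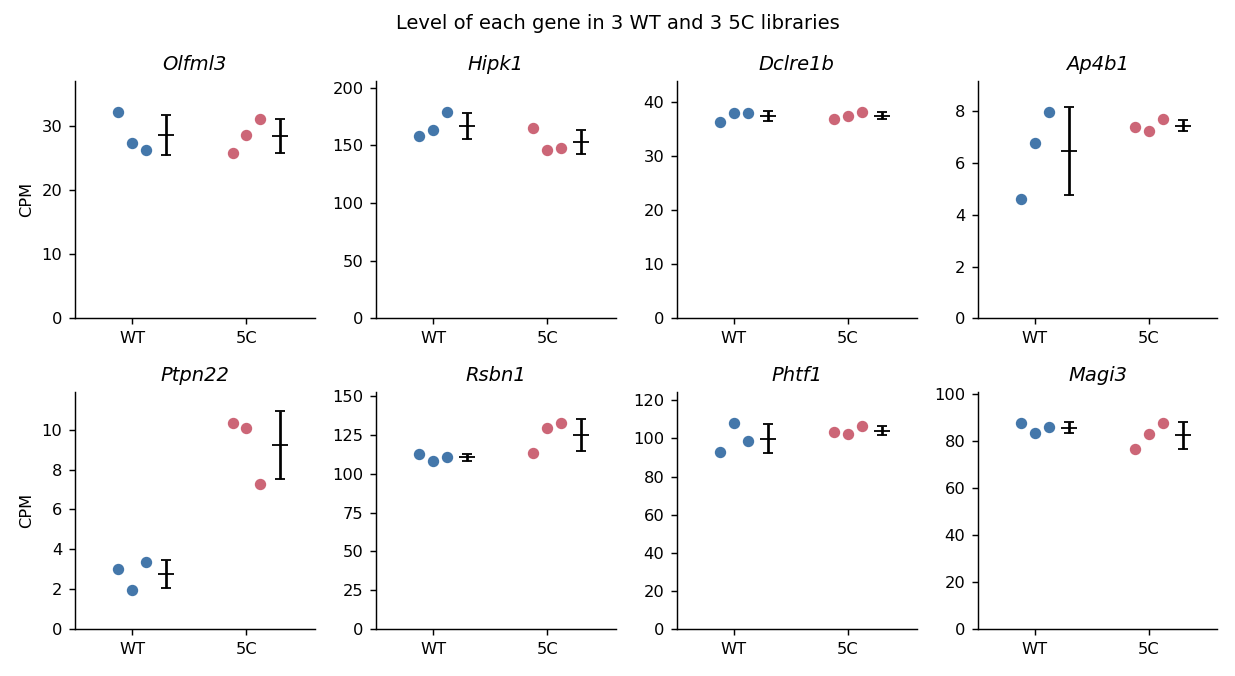
Level in CPM (y axis, from 0, a scale for each gene) of the 8 genes in map order, with 1 point per library, WT in blue and 5C in red, and the mean with its SD in black. The *Ptpn22* panel is the one where genotypes separate widely, at 1.97 to 3.35 CPM against 7.26 to 10.4 CPM, and in the *Rsbn1* panel they lie close without overlap.

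By the call rule (edgeR quasi-likelihood test, adjusted p under 0.05 and over 1.5-fold), 0 of the 8 genes were called, as were 0 of all 16784 genes tested (0%). At an unadjusted p under 0.05 there were 2 of the 8, *Ptpn22* and *Rsbn1*, against 1011 of all genes (6.02%). Genotypes did not overlap for the same 2 genes, both higher in 5C, where 6.26% of all genes tested were higher in 5C without overlap and 11.4% did not overlap in either direction. Since these counts come from the contrast that chose *Ptpn22*, nothing is read from them. The unadjusted p of *Rsbn1* was under 0.05 in 9 of 20 alternatives and not in the other 11, which included leaving out any single library except 5C replicate 1. *Ptpn22* was called under 4 of 20 alternatives, and no other member under any. The 4 were DESeq2 (which called 0.0655% of genes), edgeR with robust moderation (0.0179%), edgeR with no count filter (0.963%) and edgeR without the 2 libraries highest in *Afp* (0.0121%).

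Across the 20 alternatives the log2 fold change of *Ptpn22* ran from 1.49 to 2.03 and was positive in all of them. These fits reuse the libraries that chose *Ptpn22*, and its genotypes did not overlap in them. Its positive sign was therefore set in advance and is not a finding. Leaving out replicate 2 of both genotypes, the libraries low in *Ddx3y*, gave 1.49 ± 0.26 (SE). Leaving out WT replicate 1 and 5C replicate 3, the libraries high in *Afp*, gave 2.03 ± 0.24 (SE). *Rsbn1* and *Ap4b1* were also positive in all 20, *Hipk1* and *Magi3* negative in all 20, and *Phtf1* positive in 19. *Dclre1b* (positive in 14) and *Olfml3* (positive in 5) had no stable direction. As the alternatives share the same libraries, these signs are a description, and that of *Rsbn1*, whose genotypes did not overlap, could hardly change.

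**Figure D2:**
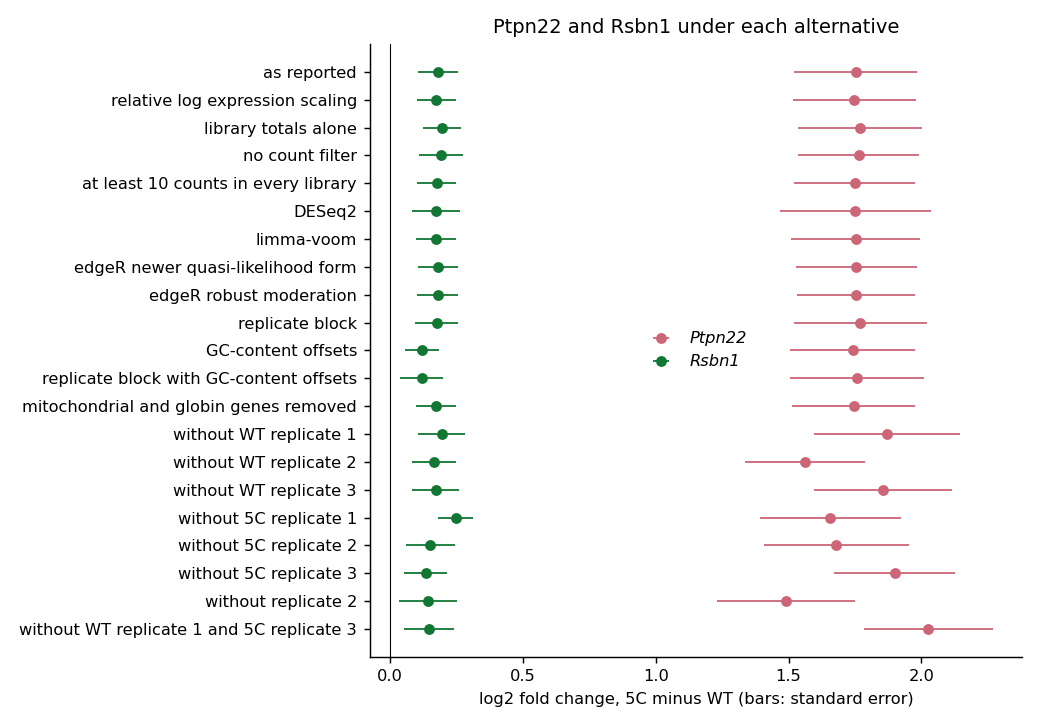
Log2 fold change of 5C over WT (x axis) with its standard error for *Ptpn22* in red and *Rsbn1* in green, with 1 line for the value as reported and for each of 20 alternatives (y axis). *Ptpn22* stays between 1.49 and 2.03 and *Rsbn1* between 0.12 and 0.25.

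To ask whether other genes around *Ptpn22* differed between genotypes, the annotated genes whose start lies within 1 Mb of the *Ptpn22* start were examined with the 8 genes left out. The fit had values for 36 of these 75 genes. None was called, and none had an unadjusted p under 0.05, against 6.02% of all genes tested; DESeq2, limma-voom and every other alternative also called 0. Of the 36, 19 were higher and 17 lower in 5C, and their log2 fold changes ranged from -0.46 to 0.52 around a median of 0.01. The 36 included 20 sense intronic models, of which 12 lie inside *Magi3* and *Hipk1*. The 13 protein-coding genes among them had 9 higher and 4 lower in 5C, from -0.25 to 0.18 with a median of 0.04. The smallest p, 0.0698 before adjustment and 0.781 after it (edgeR), belonged to *Sike1*, a suppressor of the kinase IKKε, at 84.8 CPM in WT and 93.8 CPM in 5C (named after its value was seen). Genotypes did not overlap for 3 of the 36 (8.33%), against 11.4% of all genes tested.

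Within 5 Mb, 131 genes were tested, with the 36 included and the 8 left out. None was called, and 4 (3.05%) had an unadjusted p under 0.05. They were the transcription factor genes *Tbx15* (log2 fold change 0.41) and *Nhlh2* (0.23), the glutathione transferase gene *Gstm4* (-0.48) and *Ptgfrn* (-0.15), all with an adjusted p of 0.781 (edgeR) and named after their values were seen. Over the whole of chromosome 3 without the 8 genes, 50 of 916 genes tested (5.46%) had an unadjusted p under 0.05, with 0 called and a median log2 fold change of 0.01.

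**Figure D3:**
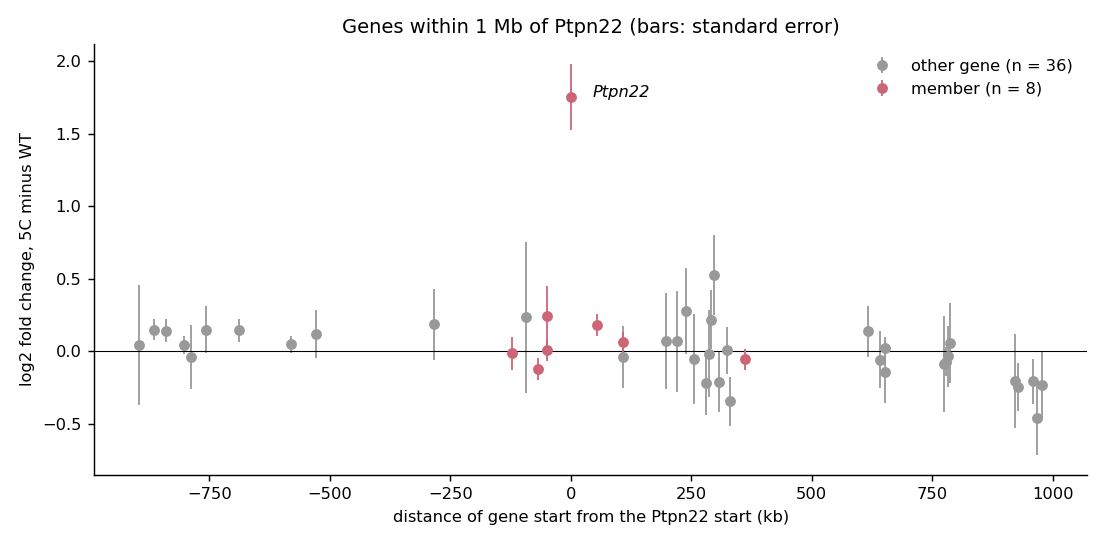
Log2 fold change of 5C over WT with its standard error (y axis) against the distance of each gene's start from the *Ptpn22* start in kb (x axis), for the 8 genes in red and the 36 other tested genes in grey. *Ptpn22* is at 1.75, and all others in the window lie between -0.46 and 0.52.

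Models inside the introns of the members add a view of the same strand outside their exons. *Ptpn22* holds 2 sense intronic models, *Gm15472* and *Gm43065*, with 0 or 1 counts together in each library of either genotype, near or below the detection floor. An antisense processed pseudogene in *Ptpn22*, *Gm15602*, had 2, 2 and 1 counts in WT and 12, 1 and 4 in 5C, with the excess in a single library. *Bcl2l15*, between *Ap4b1* and *Ptpn22*, had 4, 4 and 2 counts in WT and 9, 3 and 6 in 5C, too few to be tested.

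The 11 sense intronic models in *Magi3* were well covered. They summed to 35.6, 33.2 and 44.0 CPM in WT and to 31.4, 39.4 and 33.9 CPM in 5C, and the genotypes overlapped. The log2 ratio of the means was -0.11. Those in *Hipk1* averaged 2.24 ± 1.66 CPM in WT against 2.20 ± 0.750 CPM in 5C (SD, n = 3).

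To place *Ptpn22* among its neighbours, levels were divided by exon length (CPM per kb of all annotated exons) and ordered by the mean over both genotypes. *Rsbn1* was highest, at 15.8 to 16.4 in WT and 16.6 to 19.4 in 5C. *Hipk1* (14.5 to 16.4 in WT and 13.4 to 15.1 in 5C) and *Phtf1* (12.8 to 14.8 in WT and 14.0 to 14.6 in 5C) came next, and the order of their means turned between genotypes, at 15.3 and 13.7 in WT against 14.0 and 14.3 in 5C. *Hipk1* was above *Phtf1* in 3 of 3 WT libraries, and *Phtf1* above *Hipk1* in 2 of 3 5C libraries. *Magi3* was next (10.1 ± 0.272 in WT and 9.68 ± 0.658 in 5C, SD, n = 3 each). *Olfml3* (4.64 ± 0.514 and 4.62 ± 0.429), *Dclre1b* (4.44 ± 0.105 and 4.45 ± 0.0775) and *Ap4b1* (2.22 ± 0.586 and 2.56 ± 0.0758) followed. The place of *Ap4b1* is uncertain, since its level was divided by all 2907 exon bases and 2396 of them are shared with *Gm43064*. *Ptpn22* was lowest in all 6 libraries by this length, at 0.409 ± 0.105 in WT and 1.36 ± 0.253 in 5C. Over both genotypes 17.2% of tested genes had a lower mean level per kb of exon than *Ptpn22*, against 80.3% for *Rsbn1*.

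Adjacent genes in this order were compared with an exact two-sided sign-flip permutation test over the 6 libraries, adjusted over the 7 pairs by the Benjamini-Hochberg method. The order was made from the same libraries, so the direction of each mean difference was set in advance and is not a finding. With 6 libraries the smallest p possible is 0.03125. It was reached for *Phtf1* over *Magi3*, *Magi3* over *Olfml3*, *Dclre1b* over *Ap4b1* and *Ap4b1* over *Ptpn22* (adjusted p = 0.0547 each), with the same order in 6 of 6 libraries and mean log2 differences of 0.50 ± 0.13, 1.10 ± 0.09, 0.91 ± 0.27 and 1.68 ± 0.92 (SD, n = 6). The last of these was 2.43 ± 0.57 in WT and 0.93 ± 0.32 in 5C (SD, n = 3 each), so its test pooled libraries that differ by genotype. No pair thus passed 0.05 after adjustment. With 6 libraries and 7 pairs, none could pass unless more pairs than these reached the smallest p possible. The lack of a pass is therefore a limit of the design and says nothing of any single pair. Both pairs with *Ap4b1* rest on its uncertain level, as most of its exon bases are shared with *Gm43064*. *Rsbn1* was above *Hipk1* in 5 of 6 libraries, by a log2 difference of 0.23 ± 0.22 (SD, n = 6, exact adjusted p = 0.0875). *Hipk1* over *Phtf1* (0.07 ± 0.15, SD, n = 6, exact adjusted p = 0.401) and *Olfml3* over *Dclre1b* (0.05 ± 0.14, exact adjusted p = 0.469) differed by less than their spread.

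The order depended on the length used. With the longest transcript (2757 bases for *Ptpn22*, against 6775 bases of exon), the order by the mean over both genotypes began with *Hipk1*, *Phtf1* and *Rsbn1*, and *Dclre1b* came before *Olfml3*. *Ap4b1* and *Ptpn22* were the last, at 2.31 ± 0.608 and 1.01 ± 0.259 CPM per kb of transcript in WT (SD, n = 3). In 5C they stood at 2.66 ± 0.0787 and 3.35 ± 0.622, and *Ptpn22* was above *Ap4b1* in 5C replicates 1 and 2, so by this length *Ptpn22* was lowest in 4 of the 6 libraries. The exon bases that *Ap4b1* shares with *Gm43064* limit this comparison too.

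**Figure D4:**
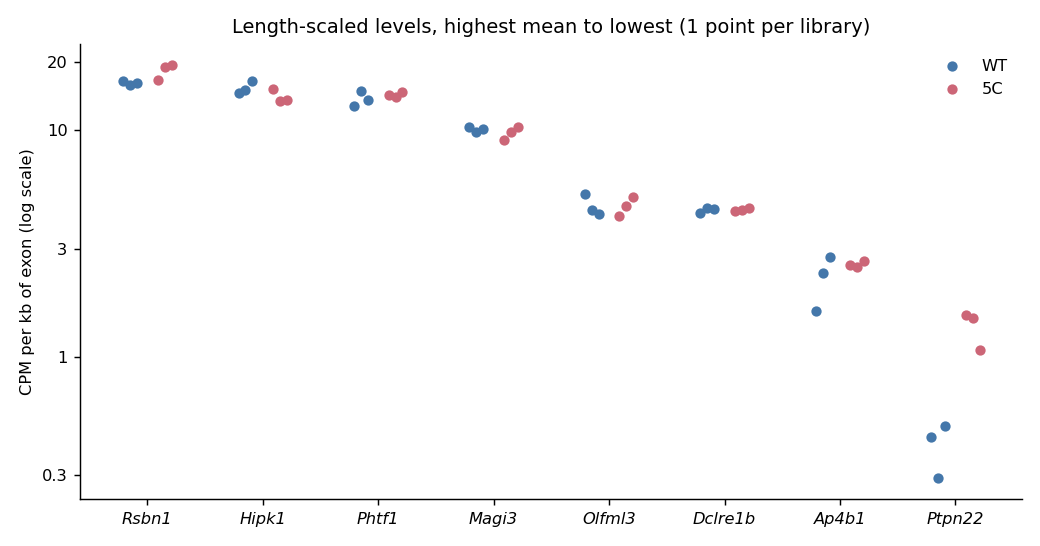
Level per kb of exon (y axis, log scale) of the 8 genes in order of their mean, with 1 point per library, WT in blue and 5C in red. By this length *Ptpn22* lies lowest, between 0.291 and 1.53 CPM per kb, and is the gene whose genotypes part most.

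Blood cell markers were examined since *Ptpn22* is known from leukocytes. The haematopoietic and leukocyte list (16 genes, all tested) had 0 genes called, 1 gene at an unadjusted p under 0.05 and a median log2 fold change of 0.20. In 5C 14 of them were higher and 2 lower. The median was 0.08 to 0.32 over the settings that left out 1 library, replicate 2 of both genotypes, or WT replicate 1 with 5C replicate 3. Ranges without libraries, here and for the other lists, are over these settings. The summed level was 103 to 147 CPM in WT and 123 to 132 CPM in 5C. *Ptprc*, the pan-leukocyte phosphatase CD45, was at 5.09, 5.58 and 4.79 CPM in WT, against 5.57, 5.98 and 8.04 CPM in 5C. The myeloid transcription factor gene *Spi1* was at 1.63, 1.55 and 0.479 CPM in WT, against 1.62 and 1.64 CPM in 5C replicates 2 and 3 and a little more in replicate 1, a log2 fold change of 0.39 ± 0.34 (SE). The gene with p under 0.05 was *Hcls1*, an actin-binding substrate of Src-family kinases, with a log2 fold change of 0.59 ± 0.25 (SE, edgeR adjusted p = 0.781). No marker on this list had a log2 fold change above 0.59, against 1.75 for *Ptpn22*.

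**Figure D5:**
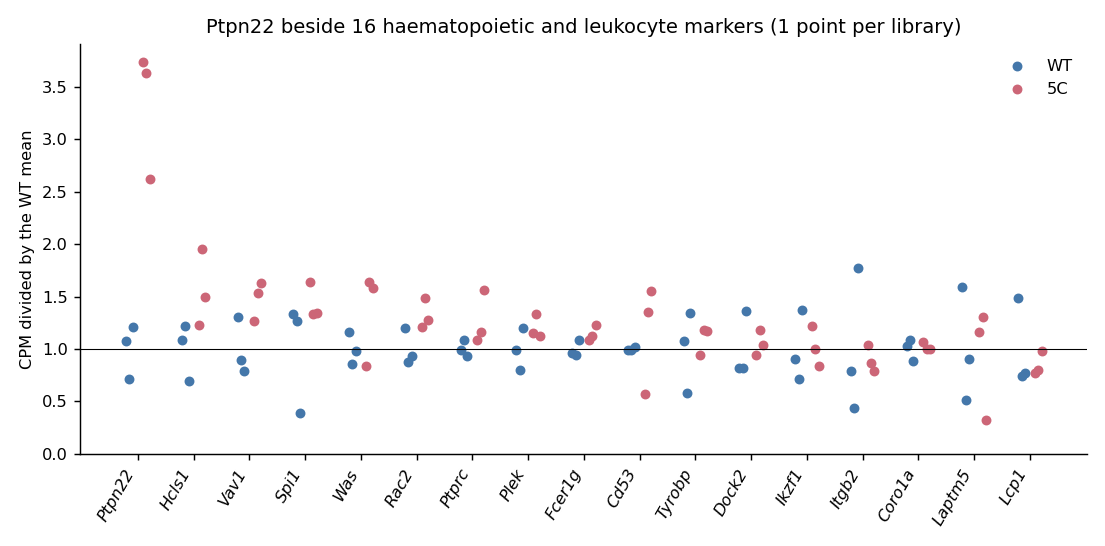
CPM divided by the WT mean (y axis, from 0) for *Ptpn22* and 16 haematopoietic and leukocyte markers (x axis, in falling order of the markers' log2 fold change), with 1 point per library, WT in blue and 5C in red. The *Ptpn22* 5C points stand above those of every marker, the markers' 5C points lie nearer to the WT mean, and *Hcls1*, the highest, has a log2 fold change of 0.59.

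T and NK lymphocyte markers were nearly absent. *Cd3e*, *Cd3d* and *Cd3g*, which encode the chains of the T cell receptor complex, had 0 counts in every library, which allows up to 0.157 to 0.472 CPM. Of the 16 genes on the list only *Lck*, the kinase that *Ptpn22* acts on in T cells, passed the filter, at 9.71, 9.27 and 11.3 CPM in WT, against 9.03, 8.45 and 10.8 CPM in 5C. Its log2 fold change was -0.09 ± 0.15 (SE) and -0.21 to -0.02 without libraries, and *Lck* is also made in other tissues. The other 15 had at most 61 counts over all 6 libraries. The summed list was at 11.2 to 14.7 CPM in WT and 10.2 to 18.9 CPM in 5C.

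Macrophage markers (14 genes, 11 tested) had 0 called, 1 with p under 0.05 and a median log2 fold change of 0.13 (0.01 to 0.33 without libraries), and summed to 52.4 to 80.9 CPM in WT and 57.6 to 71.5 CPM in 5C. The gene was *Lyz2*, lysozyme of myeloid cells, at 2.73, 2.58 and 2.55 CPM in WT, against 3.39, 4.35 and 5.77 CPM in 5C, a log2 fold change of 0.77 ± 0.23 (SE, edgeR adjusted p = 0.781). Of the 11 macrophage markers tested, 9 were higher and 2 lower in 5C. The largest change in size was that of *Fcgr3*, -0.84 ± 0.58 (SE), which was highest in WT replicate 1, at 14.8 CPM. Progenitor and megakaryocyte markers (12 genes, 10 tested) had a median of 0.18 (0.10 to 0.23 without libraries), with the platelet chemokine gene *Pf4* at 0.39 ± 0.16 (SE, edgeR adjusted p = 0.781) as the 1 gene with p under 0.05. They summed to 87.5 to 112 CPM in WT and 102 to 127 CPM in 5C. B lymphocyte markers (8 genes, 4 tested, median -0.03) and erythroid markers (10 genes, all tested, median 0.09) had none with p under 0.05. Without libraries both medians changed sign, over -0.21 to 0.02 for B markers and -0.20 to 0.30 for erythroid markers. B markers summed to 60.1 to 61.0 CPM in WT and 55.9 to 65.3 CPM in 5C, and erythroid markers to 9251 to 12738 CPM in WT and 8441 to 16537 CPM in 5C.

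Other tissues that may come with an embryo varied more. The maternal decidua list (8 genes, 6 tested) had 3 genes with p under 0.05, all higher in 5C, and a median log2 fold change of 1.72. They were the granzyme genes *Gzmg* (2.24 ± 0.74, SE), *Gzmc* (2.03 ± 0.74) and *Gzmf* (1.63 ± 0.68), made by uterine NK cells, each with an edgeR adjusted p of 0.781. Of the 6 genes tested, 5 were higher and 1 lower in 5C, and the median lies among granzyme genes. The other decidual markers tested were *Prl8a2*, at 0.38 ± 0.69 (SE), and *Cryab*, at -0.08 ± 0.19. *Prl8a2* was highest in WT replicate 3, at 43.4 CPM. *Gzmg* was at 0.315, 0.944 and 0.957 CPM in WT, against 2.42, 0.683 and 6.12 CPM in 5C, so the genotypes overlapped and 5C replicate 3 was highest. Among 5C libraries *Ptpn22* was lowest in that same replicate. Without libraries the median of the list ran from 0.11 to 2.74. The lowest was without WT replicate 1 and 5C replicate 3, a setting chosen after seeing the data, in which *Ptpn22* stood at 2.03. The list summed to 14.9 to 53.0 CPM in WT and 16.5 to 59.0 CPM in 5C, and its part in the *Ptpn22* difference was not tested. The yolk sac endoderm list (10 genes, all tested) had a median of -2.24, with *Amn* (-2.33 ± 1.04, SE, edgeR adjusted p = 0.781) as its 1 gene with p under 0.05, and summed to 206 to 6552 CPM in WT and 142 to 1263 CPM in 5C. Without WT replicate 1 its median was 0.73, and without 5C replicate 3 it was -5.23. Markers of the embryo proper (9 genes, all tested) had a median of -0.02 (-0.07 to 0.08 without libraries), with 3 higher and 6 lower in 5C. The 1 gene with p under 0.05 was the neural *Sox2*, at 0.25 ± 0.08 (SE, edgeR adjusted p = 0.781), and the lowest was *Myog*, at -0.20 ± 0.15. The list summed to 5950 to 7428 CPM in WT and 5282 to 9833 CPM in 5C. Most of that sum was the globin gene *Hbb-y*, at 5434 to 6906 CPM in WT and 4764 to 9330 CPM in 5C. The erythroid list holds the same gene, so the sum mainly follows red cells.

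The partners and substrates of *Ptpn22* (14 genes, 10 tested) had 0 called and 0 with p under 0.05, with 4 higher and 6 lower in 5C. Their median was -0.02 on the log2 scale (-0.06 to 0.07 without libraries). It lies among broadly expressed members such as *Src* (-0.02 ± 0.08, SE) and *Traf3* (-0.01 ± 0.12). Of members known from blood cells, *Vav1* was at 0.49 ± 0.24 (SE, edgeR adjusted p = 0.781), *Pstpip1* at 0.28 ± 0.35 and *Lck* at -0.09 ± 0.15. The untested members had 0 to 37 counts over all libraries. The PEST-family relatives of *Ptpn22*, *Ptpn12* and *Ptpn18*, were at 0.07 ± 0.08 and 0.25 ± 0.29 (SE). Of 10 further tyrosine phosphatases and regulators of leukocytes, *Ptprc* included, 9 were tested, 0 had p under 0.05, 4 were higher and 5 lower in 5C, and the median was -0.06. The 9 differed among themselves, and the median lies among broadly expressed members such as *Ptpn11* (-0.06 ± 0.06, SE) and *Ptpn1* (-0.09 ± 0.09). *Ubash3a*, a lymphocyte suppressor of receptor signalling, had the largest log2 fold change, 0.94 ± 0.44 (SE), and the haematopoietic phosphatase gene *Ptpn6* and *Ptprc* were at 0.36 ± 0.22 and 0.33 ± 0.19, each with an edgeR adjusted p of 0.781. *Ubash3a* was at 0.525, 0.258 and 0.798 CPM in WT, against 0.970, 1.28 and 0.641 CPM in 5C, low values that overlapped between genotypes. These members, *Ptprc* apart, were named after their values were seen.

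For the neighbours, lists of partners and paralogues were likewise near 0. The other AP-4 subunits and the accessory protein tepsin (4 genes) had a median of -0.01, and the related nucleases and shelterin proteins of Apollo (9 genes) had a median of 0.01, with 0 of either at p under 0.05. Paralogues of *Hipk1*, *Phtf1*, *Magi3*, *Rsbn1* and *Olfml3* (14 genes, 13 tested) had a median of 0.03 and 1 gene with p under 0.05, *Phtf2*, at 0.18 ± 0.07 (SE, edgeR adjusted p = 0.781).

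The 5 genes whose centred log2 CPM lay closest to that of *Ptpn22* over the 6 libraries, by root mean square difference among 15925 others, were *Gm47283* (0.458), *Iigp1* (0.489), *Macrod1* (0.510), *Myoz2* (0.524) and *Lpxn* (0.532). *Gm47283* is a gene model on the Y chromosome, with means of 6.95 ± 2.79 CPM in WT against 14.2 ± 5.16 CPM in 5C (SD, n = 3), and its genotypes overlapped. Among WT libraries it was lowest in replicate 2, the WT library low in *Ddx3y*. Among 5C libraries it was highest in replicate 2, where no *Ddx3y* was counted. Its reads can therefore not be taken as coming from the Y chromosome. *Iigp1* encodes an interferon-induced GTPase, *Macrod1* an ADP-ribosyl hydrolase, *Myoz2* a Z-disc protein of striated muscle, and *Lpxn* a paxillin-family adaptor of leukocytes. These differences were large beside the pattern itself, as even the closest gene differed by 0.458 on the log2 scale. Of the neighbours, *Rsbn1* was closest at 0.839, in position 1535, and *Hipk1* farthest at 0.966, against a median of 0.926 over all genes compared.

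The extra array makes miR-483, so the 3′ UTRs of the members were searched for matches to bases 2 to 8 of its mature arms. The mature sequences, with these seed bases in capitals, are printed with the only match found, in which the capitals mark the 7 matching bases.
mmu-miR-483-3p: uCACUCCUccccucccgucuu
mmu-miR-483-5p: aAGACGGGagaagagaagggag
Phtf1 3′ UTR site: tctccactcagcCCCGTCTaacgaatg

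The seed of miR-483-3p had no match in any member's 3′ UTR, read from the longest coding transcript (207 to 4178 bases), where 12.5% of 13886 tested genes with a 3′ UTR held at least 1. That of miR-483-5p matched *Phtf1* alone, at base 123 of its 480-base 3′ UTR, where 3.44% of genes held 1 or more. *Ptpn22* held neither. Its searched 3′ UTR of 207 bases was the shortest of the 8, against a median of 1200 bases over the genes compared. The lack of a match in *Ptpn22* is therefore not set against those percentages. *Phtf1* had a log2 fold change of 0.06 ± 0.07 (SE). A match is a description of letters, and no binding was measured here.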

How the data were processed

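Gene-level read counts of 6 libraries were deposited without normalization. Per the study's methods, the authors made stranded mRNA libraries (TruSeq), sequenced them as short single-end reads and aligned them with STAR to GRCm38 (the build and aligner also named in the submitters' processing notes) with Ensembl gene models. The strand column of the deposited counts is not given in the sources used here. Positions and exon lengths came from GENCODE M21, in which 55141 of 55401 identifiers were found, and promoter and microRNA sequences from RefSeq. No columns were left unmapped.

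Counts were filtered with filterByExpr, scaled by TMM and tested with the quasi-likelihood F-test in edgeR 4.0.16 (R 4.3.3, legacy form, genotype only), two-sided, with Benjamini-Hochberg adjustment over 16784 genes. CPM used TMM-scaled totals, and order tests used log2 CPM with a prior count of 0.5. A called gene had an adjusted p under 0.05 and over 1.5-fold. P-values measure the spread between these libraries. Alternatives were other scalings, filters and tests (DESeq2 1.42.0, limma 3.58.1), GC-content offsets, a replicate block, removal of mitochondrial and globin genes, and libraries left out. The fits were run on simulated counts in which some genes were changed, with a spread set by mean level alone. The simulation held no yolk sac or sex differences between libraries, so it does not show which call of *Ptpn22* is right.

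The members and gene lists were chosen with earlier results of these data known. Named beside the 8 members were *Mir483*, *Ddx3y*, *Afp*, *Ptprc*, *Spi1*, *Cd3e*, *Lck*, at most 3 genes of a list with the smallest p under 0.05, markers at 0 in every library, and the 5 genes closest to *Ptpn22* among those with a mean of at least 1 CPM. Others were chosen after their values were seen, as was leaving out WT replicate 1 together with 5C replicate 3.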

Additional observations from a re-analysis of the deposited data

How the results depend on the processing

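The edgeR test called 0 of 16784 genes. DESeq2 called 11, robust moderation 3, the test without a count filter 319, and the test without WT replicate 1 and 5C replicate 3 (chosen after seeing the data) 2. In these 4 settings 1 member was called, *Ptpn22*, against 0 in the others. With 1 library or replicate 2 of both genotypes left out, 0 to 1 genes were called, and 0 members. Genes with an unadjusted p under 0.05 numbered 1011, against 2170 without a count filter, 513 with the replicate block and GC-content offsets, 1803 without WT replicate 2 and 456 without 5C replicate 2. Of the 1011 genes 57.7% were lower in 5C, against 42.4% with library totals alone, 67.8% without WT replicate 2 and 77.9% without replicate 2 of both genotypes. Between genotypes, the deviations of libraries with equal replicate numbers correlated between -0.174 and 0.202, which gave no sign of pairing. So few correlations cannot settle it, and whether libraries shared a litter or a batch was not tested. With the replicate block, 0 genes were called and *Ptpn22* stood at 1.77. Of 140 values of the other members under the alternatives, 1 moved by more than the spread between replicates (*Dclre1b*, to -0.03), as did 21 of 300 list medians. In the order of levels, 0 adjacent pairs passed the adjusted threshold with all 6 libraries, nor did any with library totals alone, a prior count of 2 or the longest transcript. The test was not run with libraries left out, and with so few libraries these zeros say nothing of stability. The cause of these differences was not tested. Depth limits *Bcl2l15* and the intronic models of *Ptpn22*, which held too few counts to be tested, and 3 libraries a genotype limit every difference.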
